A study of Mus musculus with 12 samples.

Results

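The axon guidance ligands and receptors examined here are the semaphorins of classes 3 to 7, their plexin and neuropilin receptors, the ephrins and Eph receptor kinases, the slits and Robo receptors, the netrins and Unc5 receptors, and the teneurins. Members were picked by gene symbol, but the choice was made with earlier results of these data known. The symbol patterns matched 72 of the 39179 genes in the tables, and 48 of the 72 had a mean of at least 10 normalised reads in at least 1 line, which was the filter for testing. RNA-seq was performed on 4 lines of NIH-3T3, an immortalised mouse embryonic fibroblast line, with 3 libraries for each line. The CBL-70Z line stably expressed a FLAG-tagged CBL that lacks a stretch of residues at the linker and RING region. The CBL-Y371S line stably expressed FLAG-tagged CBL with the activating tyrosine replaced by serine. Both proteins lack ubiquitin ligase activity. The WT-CBL line stably expressed the full-length FLAG-tagged enzyme, which ubiquitinates activated receptor tyrosine kinases, and the EV line carried the empty vector. All 4 lines were made with a puromycin-resistance vector, kept their endogenous Cbl, and were grown as monolayers. Whether a line was a clone or a pool, and whether its 3 libraries came from separate cultures, are not given in the sources used here, so each p-value measures the spread between these libraries, which may be technical.

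These gene families were named for steering growth cones, but fibroblasts and other cells use them to set contact, adhesion and migration. Semaphorins signal through plexins, whose cytoplasmic part acts on small GTPases, and the secreted class 3 proteins usually need a neuropilin as co-receptor. Ephrins are held in the membrane and bind Eph receptor tyrosine kinases on the neighbouring cell, so that contact signals in both directions. Slits are secreted ligands of Robo receptors, netrins act through Dcc, neogenin and Unc5 receptors, and teneurins are large transmembrane adhesion proteins that bind latrophilins. Several Eph receptors are known substrates of CBL at the protein level, which these RNA measurements do not address.

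The 4 members called at least 2-fold higher in CBL-70Z than in WT-CBL were Tenm4, Sema7a, Plxna4 and Sema5a. Their start regions are shown for that reason, with those of Epha4 and its ligand gene Efna5 as a receptor and ligand pair that fell in both mutant lines against EV. The RefSeq promoter table for GRCm38.p6 held 63 of the 72 members and 40 of the 48 tested members. Plxna4 was not matched. Each window runs from 250 bases before to 50 bases after a start. Sema7a lies on the plus strand at chr9:57939862-57940161, Sema5a on the plus strand at chr15:32244563-32244862, Efna5 on the minus strand at chr17:62881268-62881567 and Epha4 on the minus strand at chr1:77515039-77515338. Tenm4 has 2 starts in the table, both on the plus strand, at chr7:96170994-96171293 and chr7:96211421-96211720. Capitals mark each match to a searched motif, and every match in these windows was to the GC box.
Sema7a: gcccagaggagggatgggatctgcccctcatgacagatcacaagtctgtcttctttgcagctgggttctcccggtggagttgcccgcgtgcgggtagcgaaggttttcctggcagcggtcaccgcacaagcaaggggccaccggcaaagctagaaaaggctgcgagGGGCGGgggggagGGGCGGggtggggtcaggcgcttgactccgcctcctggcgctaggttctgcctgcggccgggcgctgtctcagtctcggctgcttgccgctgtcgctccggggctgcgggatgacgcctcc
Tenm4 upstream start: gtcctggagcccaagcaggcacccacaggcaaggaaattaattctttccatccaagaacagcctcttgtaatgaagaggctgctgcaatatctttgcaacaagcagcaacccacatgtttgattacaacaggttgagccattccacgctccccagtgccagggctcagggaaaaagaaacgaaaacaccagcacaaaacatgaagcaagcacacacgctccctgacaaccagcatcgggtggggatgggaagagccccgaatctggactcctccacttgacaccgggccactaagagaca
Tenm4 downstream start: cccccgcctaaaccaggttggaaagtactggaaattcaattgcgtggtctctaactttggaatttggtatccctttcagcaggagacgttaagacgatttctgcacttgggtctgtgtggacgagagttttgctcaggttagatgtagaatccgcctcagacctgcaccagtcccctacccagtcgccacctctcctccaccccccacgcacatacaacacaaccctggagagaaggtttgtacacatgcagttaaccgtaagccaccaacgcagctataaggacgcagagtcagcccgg
Sema5a: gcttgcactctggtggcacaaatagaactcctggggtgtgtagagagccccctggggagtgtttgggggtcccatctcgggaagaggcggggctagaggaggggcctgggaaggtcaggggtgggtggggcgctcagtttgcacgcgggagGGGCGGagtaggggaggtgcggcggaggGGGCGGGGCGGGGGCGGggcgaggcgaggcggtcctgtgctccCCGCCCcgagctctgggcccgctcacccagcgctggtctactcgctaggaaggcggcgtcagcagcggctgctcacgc
Efna5: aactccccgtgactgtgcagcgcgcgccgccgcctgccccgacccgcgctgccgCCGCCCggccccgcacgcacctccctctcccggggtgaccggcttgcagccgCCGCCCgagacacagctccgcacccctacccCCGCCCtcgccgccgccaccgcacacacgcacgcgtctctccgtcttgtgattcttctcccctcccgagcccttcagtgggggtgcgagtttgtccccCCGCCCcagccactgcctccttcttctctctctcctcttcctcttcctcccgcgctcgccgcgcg
Epha4: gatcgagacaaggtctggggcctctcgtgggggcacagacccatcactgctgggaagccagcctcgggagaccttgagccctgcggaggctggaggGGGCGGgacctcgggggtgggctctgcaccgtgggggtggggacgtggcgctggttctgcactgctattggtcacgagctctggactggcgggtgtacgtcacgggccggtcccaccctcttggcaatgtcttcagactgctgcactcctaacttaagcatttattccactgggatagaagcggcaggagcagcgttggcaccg
Motifs were searched on both strands, and matches may overlap. In the Sema5a window, GC boxes starting at bases 180 and 185 share a base and another follows at base 191, so their capitals run together. The GC box (GGGCGG) was found in 35.7% of the 32851 promoter windows of the table, in 68.8% of the 9412 tested genes with a window and in 34 of the 40 tested members with a window. The AP-1 motif (TGANTCA) was found in 7.81% of all windows, in 6.17% of the tested genes with a window and in 3 of the 40 members, which were Sema4c, Sema4d and Sema6b. The E-box (CACGTG), the CRE (TGACGTCA), the TATA box (TATAAA) and the CArG box were found in 7.15%, 1.79%, 13.6% and 1.63% of all windows. In the same order they were found in 11.6%, 3.60%, 8.56% and 1.59% of the tested genes with a window. Among the members they were found in Sema4b, in Epha2, in Efnb2 and Slit2, and in Sema4d. The Sema7a window held 2 GC boxes, Sema5a held 5, Efna5 held 4 and Epha4 held 1. Neither Tenm4 window held any of the 6 motifs in these letters. The G and C share was 67.3% in the Sema7a window and 71.3% in the Sema5a window, against 52.0% and 52.3% in the Tenm4 windows. The median was 52.7% over all windows and 64.7% over the 54 windows of tested members.

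Libraries had 20724468 to 29684881 reads in genes. Values are given as normalised reads, that is, reads divided by a size factor between 0.859 and 1.20, so that 1 normalised read is close to 1 read. Cbl reads were compared with the labels, but whether the constructs were of mouse or human sequence is not given in the sources used here, so reads assigned to mouse Cbl need not measure what a line expressed from its vector. Cbl had 1701, 1820.1 and 1614 normalised reads in the CBL-70Z libraries, 1407, 1680.3 and 1457 in the CBL-Y371S libraries, 802, 925 and 688 in WT-CBL and 728, 687 and 625 in EV, so that Cbl was 2.52-fold and 2.22-fold higher in the mutant lines than in EV but 1.18-fold higher in WT-CBL, where replicate 3 lay within the EV range. WT-CBL replicate 3 also stood apart from the other libraries of its line, with a chi-square per degree of freedom of 6.05 and 6.04 against them over genes, where all other pairs within a line gave 1.43 to 2.94. All 10 fibroblast markers passed the filter in these cells, with summed levels of 793110 to 805921 normalised reads in CBL-70Z, 758342 to 804998 in CBL-Y371S, 885227 to 934683 in WT-CBL and 974399 to 1013439 in EV, so that the EV sums lay above all others. Single markers differed: Vim and S100a4 had their lowest means in EV, at 93547 and 44095 normalised reads. In CBL-Y371S they averaged 135753 and 64544. The other fibroblast markers had their highest mean in EV. Of the neuron markers 3 of 8 passed, and their summed level was 432 to 477 in CBL-70Z, 521 to 526 in CBL-Y371S, 403 to 414 in WT-CBL and 311 to 320 in EV, most of it Tubb3, while Map2, Rbfox3, Syt1 and Stmn2 stayed under 10 in every library. Of the glial markers 1 of 6 passed, with summed levels of 122 to 133, 113 to 138, 106 to 123 and 90.9 to 118 in the same order of lines and Olig2 at 0. Endothelial, epithelial and blood markers passed in 2 of 6, 3 of 5 and 1 of 5 cases, and their summed levels overlapped between every mutant line and EV. The part of these cells in any result below was not tested, and in bulk RNA fewer cells of a type and less RNA per cell cannot be told apart.

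Per length, the fibroblasts' guidance repertoire was led by Slit3, which encodes a secreted Robo ligand, and by the plexins Plxnb2 and Plxna1. In EV cells Slit3 stood at 84.8 ± 2.01 RPKM, reads scaled for exon length and library depth (SD, n = 3). Plxnb2, a plexin for class 4 semaphorins, stood at 56.0 ± 0.806 RPKM, Plxna1, which pairs with neuropilins, at 33.0 ± 0.621 RPKM, and Ephb4, a receptor for ephrin-B2, at 27.5 ± 0.563 RPKM. Between neighbours in this order the means lay further apart than their SDs. Ephb3 at 17.5 ± 0.103 RPKM and Nrp1 at 17.7 ± 0.288 RPKM followed, and their means differed by less than the SD of Nrp1. At the other end, 24 members failed the filter, and the highest library value among them was 7.69 normalised reads, in Ntn4. Of these, 22 had at least 1 read in some library, and Epha3 and Epha6 had 0 reads in all 12 libraries, a count that allows up to 3 reads. Families differed in how many of their genes were in use: both neuropilins, all 3 slits, 7 of 9 plexins and 7 of 8 ephrins passed, but only 1 of 4 Robo receptors, 1 of 4 Unc5 receptors and 1 of 4 teneurins. Epha10, Ntn5 and Sema6a passed with a mean under 10 in at least 1 line. The members took 0.264 to 0.270% of all reads in the CBL-70Z libraries, 0.247 to 0.255% in CBL-Y371S, 0.243 to 0.268% in WT-CBL and 0.282 to 0.288% in EV, so that the EV libraries lay above all others.

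**Figure D1:**
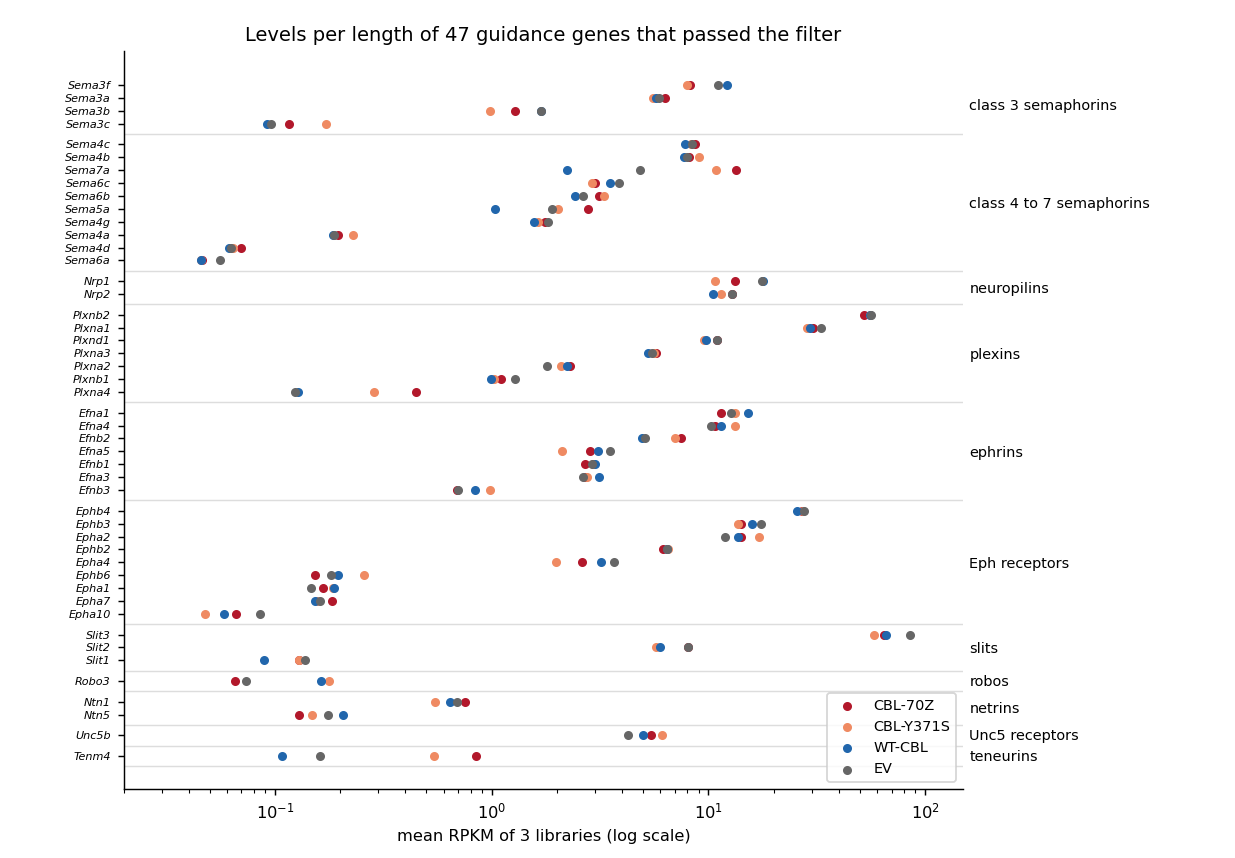
Mean RPKM over the 3 libraries of each line on a log axis for the 47 tested guidance genes with an exon length, grouped by family, with 1 point for each line. Slit3 is highest in every line, and Tenm4, Sema7a, Plxna4, Robo3 and Sema5a show the widest spacing between lines.

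Members changed in both directions in every comparison. Changes were tested with limma on log2(value + 1) over all 15266 genes that passed the filter, and a gene is said to have risen or fallen at an adjusted p under 0.05. The values given beside such changes are log2 fold changes, negative where the first line is lower. In CBL-70Z against EV, 8 of the 48 tested members rose and 13 fell (16.7% and 27.1%), where 12.2% of all tested genes rose and 12.1% fell. In CBL-Y371S against EV, 13 rose and 17 fell (27.1% and 35.4%), beside 29.8% and 30.3% of all genes. In WT-CBL against EV, 6 rose and 15 fell (12.5% and 31.2%), beside 20.8% and 21.0%. In CBL-70Z against WT-CBL, 11 rose and 9 fell, beside 18.9% and 16.3% of all genes. In CBL-Y371S against WT-CBL, 10 rose and 9 fell, beside 18.5% and 21.5%. In CBL-70Z against CBL-Y371S, 15 rose and 7 fell, beside 25.9% and 24.5%. The median log2 fold change of the members against EV was -0.035 in CBL-70Z, -0.061 in CBL-Y371S and -0.083 in WT-CBL, where all tested genes had medians of 0.005, 0.007 and 0.015. Few changes were large. A fold of at least 2 was passed by 3 members in CBL-70Z, 4 in CBL-Y371S and 2 in WT-CBL against EV, beside 0.852%, 3.29% and 0.911% of all genes, and by 5 members in CBL-70Z against WT-CBL, 3 in CBL-Y371S against WT-CBL and 1 in CBL-70Z against CBL-Y371S, beside 1.33%, 1.35% and 1.55% of all genes. The 3 comparisons against EV share its libraries. Without WT-CBL replicate 3, 19 members were called in WT-CBL against EV, 20 in CBL-70Z against WT-CBL and 25 in CBL-Y371S against WT-CBL, beside 34.8%, 29.9% and 43.8% of all genes.

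Fold changes of all genes followed exon length, and the members are long. Over 15095 genes with a length, Spearman's rho between fold change and exon length was -0.17 in CBL-70Z, -0.37 in CBL-Y371S and -0.41 in WT-CBL against EV, a description across genes, which are not independent. The 47 tested members with a length had a median of 6.64 kb of exon, from 1.60 kb for Efna4 to 25.4 kb for Slit2, and 39 of them were longer than the median tested gene of 3.78 kb. Their median G and C share was 56.8%, where all tested genes had 49.7%. With the trend on length and G and C content removed from each library, 10 of these 47 members rose and 9 fell in CBL-70Z against EV, beside 15.3% and 11.4% of all genes with a length. In CBL-Y371S against EV, 14 rose and 15 fell, beside 32.1% and 24.7%, and in WT-CBL against EV 8 rose and 11 fell, beside 20.8% and 15.7%. For called changes below, the value with the trend removed is given where it ends the call, turns direction or moves by more than 1.5-fold. For values that were not called it is given only in some cases.

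**Figure D2:**
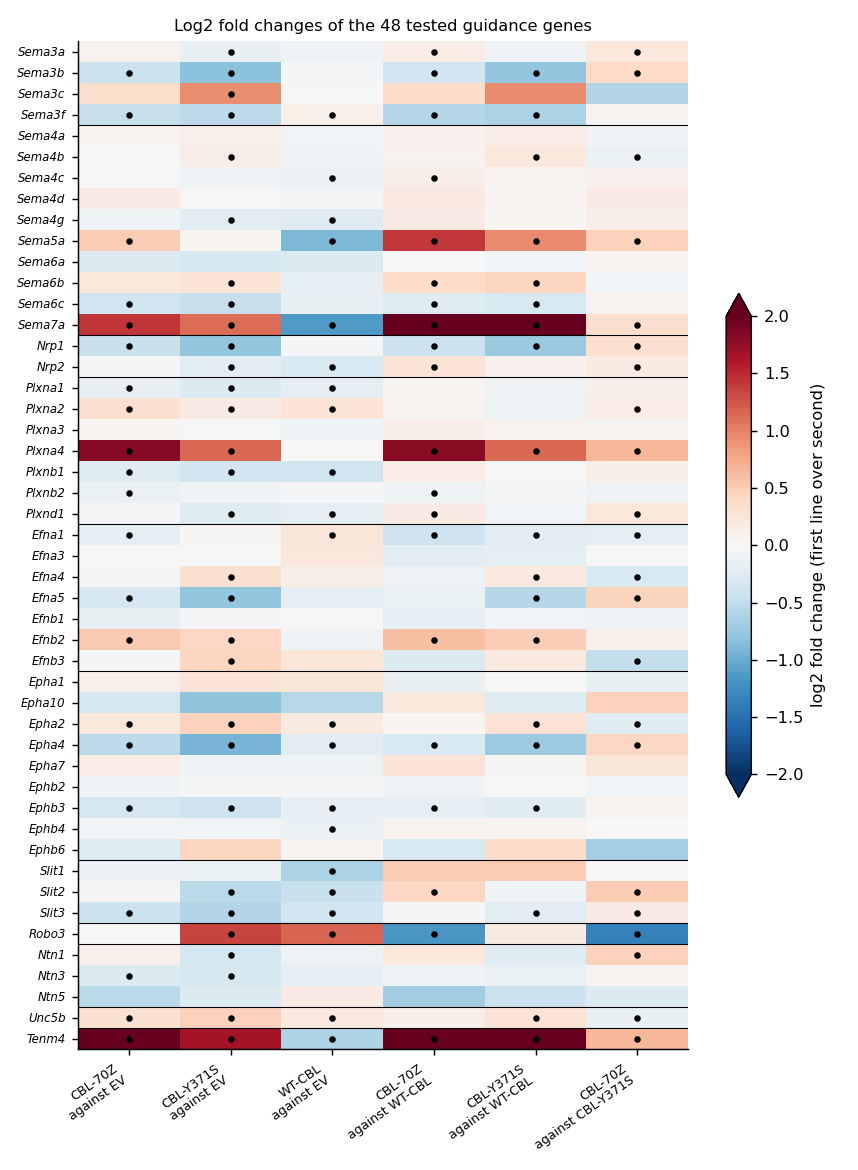
Log2 fold changes of the 48 tested guidance genes (rows, by family) in the 6 comparisons (columns), each the first line over the second, with black dots where the adjusted p was under 0.05. Colours saturate at a 4-fold change, which Tenm4 and Sema7a pass in both mutant lines against WT-CBL.

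Sema7a, a semaphorin anchored to the membrane by a lipid that binds integrins and Plxnc1, was raised in both mutant lines and lowered in WT-CBL. Sema7a had 1083, 1019 and 1094 normalised reads in the CBL-70Z libraries, 899.8, 841 and 832 in the CBL-Y371S libraries, 198, 183 and 157 in the WT-CBL libraries and 426, 371.2 and 384 in the EV libraries. No library of a line overlapped that of another line, with CBL-70Z highest, then CBL-Y371S, then EV and WT-CBL lowest. Its log2 fold change against EV was 1.44 ± 0.073 (adjusted p = 1.07e-11) in CBL-70Z, 1.12 ± 0.073 (adjusted p = 8.43e-11) in CBL-Y371S and -1.13 ± 0.073 (adjusted p = 6.21e-10) in WT-CBL, where ± is the standard error from limma. Against WT-CBL this made Sema7a 5.94-fold higher in CBL-70Z and 4.78-fold higher in CBL-Y371S. The difference of CBL-70Z from CBL-Y371S was 0.31 ± 0.073 (adjusted p = 0.00126), and 0.47 with the length and G and C trend removed. Plxnc1, its plexin, failed the filter with at most 4.82 normalised reads in a library, whereas its integrin subunit partner gene Itgb1 averaged 18084.4 normalised reads in EV.

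Sema5a, a transmembrane semaphorin with thrombospondin repeats, fell further in WT-CBL than any other member except Sema7a. Sema5a had 1291, 1272 and 1199.9 normalised reads in the CBL-70Z libraries, 882, 947 and 895 in the CBL-Y371S libraries, 484, 484 and 446 in the WT-CBL libraries and 875, 867 and 904 in the EV libraries. The WT-CBL libraries lay far below all others, the CBL-70Z libraries above all others, and CBL-Y371S overlapped EV. Sema5a fell in WT-CBL with a log2 fold change of -0.90 ± 0.047 (adjusted p = 4.31e-11) and rose in CBL-70Z with 0.51 ± 0.047 (adjusted p = 8.91e-08), both against EV. CBL-Y371S differed from EV by 0.042 ± 0.047 (adjusted p = 0.461), but by 0.46 with the trend removed, which was called. Sema5a has 18.7 kb of exon. Against WT-CBL it was 2.66-fold higher in CBL-70Z and 1.93-fold higher in CBL-Y371S, and the difference of CBL-70Z from CBL-Y371S was 0.47 ± 0.047 (adjusted p = 1.1e-07), which was 0.10 and not called with the trend removed.

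Among the secreted class 3 semaphorins, which repel growth cones through neuropilin and plexin complexes, Sema3f and Sema3b fell in both mutant lines. Sema3f had 1043, 986 and 1081 normalised reads in the CBL-70Z libraries, 983, 1009 and 992 in the CBL-Y371S libraries, 1600.5, 1547 and 1479 in the WT-CBL libraries and 1444, 1456 and 1390.3 in the EV libraries. All 6 mutant libraries lay below the 6 libraries of WT-CBL and EV. Sema3f fell against EV with -0.47 ± 0.041 (adjusted p = 5.05e-08) in CBL-70Z and with -0.52 ± 0.041 (adjusted p = 1.43e-09) in CBL-Y371S. In WT-CBL it was slightly higher than in EV, 0.11 ± 0.041 (adjusted p = 0.0418), a call that was lost without any of 8 of the 12 libraries in turn, with values from 0.081 to 0.121 among those 8. Sema3b had 156, 141 and 149.7 normalised reads in the CBL-70Z libraries, 109.8, 121 and 108 in the CBL-Y371S libraries, 179.6, 210.5 and 195 in the WT-CBL libraries and 209, 200.2 and 192 in the EV libraries. Here too neither mutant overlapped WT-CBL or EV, and CBL-Y371S lay lowest. Sema3b had log2 fold changes against EV of -0.43 ± 0.089 (adjusted p = 0.0013) in CBL-70Z, -0.82 ± 0.089 (adjusted p = 1.13e-07) in CBL-Y371S and -0.041 ± 0.089 (adjusted p = 0.754) in WT-CBL, and CBL-70Z stood above CBL-Y371S by 0.40 ± 0.089 (adjusted p = 0.000886). Sema3f binds Nrp2 best and Sema3a binds Nrp1. Sema3a, at 13.9 kb of exon, showed small changes that depended on the trend: in CBL-Y371S against EV it was -0.14 and called lower, but 0.30 and called higher with the trend removed, as were its values of 0.11 in CBL-70Z and 0.19 in WT-CBL. Sema3c rose in CBL-Y371S against EV by 0.93 ± 0.39 (adjusted p = 0.0471) on 29.5 normalised reads, a call that edgeR and DESeq2 on the reads did not make and that was lost without 6 of the 12 libraries in turn (0.61 to 1.07). Sema3d, Sema3e and Sema3g failed the filter, with at most 4.33 normalised reads in a library.

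The remaining class 4 to 7 semaphorins, which are transmembrane ligands that can also act as receptors, moved less. Sema6c fell in CBL-70Z with -0.40 ± 0.072 (adjusted p = 0.000365) and in CBL-Y371S with -0.46 ± 0.072 (adjusted p = 1.38e-05) against EV, and had -0.15 in WT-CBL, which was not called. Sema6b rose in CBL-Y371S by 0.27, or 0.18 and not called without CBL-Y371S replicate 1, and stood at 0.21 in CBL-70Z and -0.16 in WT-CBL, neither of which was called, although the CBL-70Z value was 0.28 and called with the trend removed. Sema4b rose by 0.13 in CBL-Y371S, a call lost without CBL-Y371S replicate 3 (0.11). Sema4g fell with -0.21 in CBL-Y371S and with -0.25 in WT-CBL, and neither call held with the trend removed (-0.13 and -0.15). Sema4c fell in WT-CBL with -0.12, a call lost without EV replicate 1 or 2 or WT-CBL replicate 1 or 3 (-0.098 to -0.13), and with the trend removed it was -0.15 in CBL-Y371S and called lower, instead of -0.067. Sema4a, Sema4d and Sema6a were called in no comparison, with means between 9.57 and 29.4 normalised reads in every line. Sema4f, Sema5b and Sema6d failed the filter.

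The neuropilins, co-receptors of class 3 semaphorins and of VEGF, split between the lines. Nrp1 had 3104, 3114 and 3217 normalised reads in the CBL-70Z libraries, 2508, 2592 and 2444 in the CBL-Y371S libraries, 4411, 4359.5 and 3918 in the WT-CBL libraries and 4362, 4311 and 4192 in the EV libraries. The CBL-Y371S libraries lay lowest, the CBL-70Z libraries between them and the rest, and WT-CBL overlapped EV. Nrp1 fell against EV with -0.45 ± 0.039 (adjusted p = 3.38e-08) in CBL-70Z and with -0.77 ± 0.039 (adjusted p = 2.25e-12) in CBL-Y371S. With the trend removed the CBL-Y371S value was -0.43, still called, and the difference of CBL-70Z from CBL-Y371S was 0.010 and not called, instead of 0.32. Its value in WT-CBL against EV was -0.022 and not called, and 0.16 and called higher with the trend removed. Nrp2 had 3697, 3707 and 3605 normalised reads in the CBL-70Z libraries, 3242, 3198 and 3240.0 in the CBL-Y371S libraries, 3115, 3219.9 and 2779 in the WT-CBL libraries and 3823, 3821 and 3619.9 in the EV libraries. WT-CBL and CBL-Y371S overlapped and lay below CBL-70Z and EV, which also overlapped. Nrp2 fell against EV with -0.31 ± 0.041 (adjusted p = 6.88e-06) in WT-CBL and with -0.22 ± 0.041 (adjusted p = 0.000118) in CBL-Y371S, and stood at -0.033 ± 0.041 (adjusted p = 0.624) in CBL-70Z. Nrp2 has 11.8 kb of exon, and with the trend removed the WT-CBL value was -0.11, the CBL-Y371S value turned to 0.035 and lost its call, and the excess of CBL-70Z over WT-CBL was 0.16 instead of 0.28. The CBL-70Z value against EV turned to 0.043 and was still not called.

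Of the 7 tested plexins, the signalling receptors of semaphorins, Plxna4 alone passed a fold of 2. Plxna4 had 125, 151 and 184 normalised reads in the CBL-70Z libraries, 116, 85.0 and 88.5 in the CBL-Y371S libraries, 42.3, 56.3 and 32.4 in the WT-CBL libraries and 54.2, 41.7 and 33.6 in the EV libraries. All 6 mutant libraries lay above the 6 others, with no overlap, while WT-CBL and EV overlapped. Plxna4 rose against EV by 1.81 ± 0.20 (adjusted p = 9.57e-07) in CBL-70Z and by 1.15 ± 0.20 (adjusted p = 4.73e-05) in CBL-Y371S, and was 0.007 ± 0.20 (adjusted p = 0.982) in WT-CBL. The difference of CBL-70Z from CBL-Y371S, 0.66 ± 0.20 (adjusted p = 0.0092), was not called with the trend removed (0.46) or without CBL-70Z replicate 3 (0.52). Even in CBL-70Z Plxna4 stood at 0.449 ± 0.0879 RPKM, far under Plxnb2 at 52.2 ± 0.845 RPKM in the same line (SD, n = 3). Plxnb1 had 256, 270.4 and 245 normalised reads in the CBL-70Z libraries, 231, 225 and 246 in the CBL-Y371S libraries, 242, 238 and 216 in the WT-CBL libraries and 296, 307 and 309 in the EV libraries. The EV libraries lay above all 9 others. Plxnb1, the receptor of Sema4d, fell against EV with -0.24 ± 0.071 (adjusted p = 0.0165) in CBL-70Z, -0.38 ± 0.071 (adjusted p = 0.000122) in CBL-Y371S and -0.39 ± 0.071 (adjusted p = 0.000193) in WT-CBL. The CBL-70Z call did not hold with the trend removed (-0.16) or without EV replicate 2 or 3 or CBL-70Z replicate 3, where the values were -0.24, -0.23 and -0.21. Plxna2 rose in all 3 lines, by 0.32 in CBL-70Z, 0.16 in CBL-Y371S and 0.27 in WT-CBL. With the trend removed Plxna2 was 0.52 in CBL-Y371S and 0.53 in WT-CBL, both above its 0.40 in CBL-70Z. Plxna1 fell in all 3, with -0.16, -0.27 and -0.20 in the same order, and the CBL-70Z and WT-CBL calls did not hold with the trend removed (-0.075 and -0.092), while the CBL-Y371S value was -0.17 and still called. The WT-CBL value was -0.11 and still called without WT-CBL replicate 3. The CBL-70Z call was also lost without any of the EV or CBL-70Z libraries in turn (-0.14 to -0.17). Plxna1 shares 10.7% of its exon bases with another gene, and the kit does not mark strand. Plxnd1, a receptor of Sema3e, fell in CBL-Y371S (-0.24) and WT-CBL (-0.19, or -0.10 and still called with the trend removed), and Plxna3 was called in no comparison. Plxnb2 fell in CBL-70Z against EV, a call lost with the trend removed (-0.062). Against WT-CBL, Plxnb2 was -0.10 and called lower in CBL-70Z. That call was lost without WT-CBL replicate 1 (-0.098) or 2 (-0.059), or without CBL-70Z replicate 1 (-0.10) or 2 (-0.088).

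**Figure D3:**
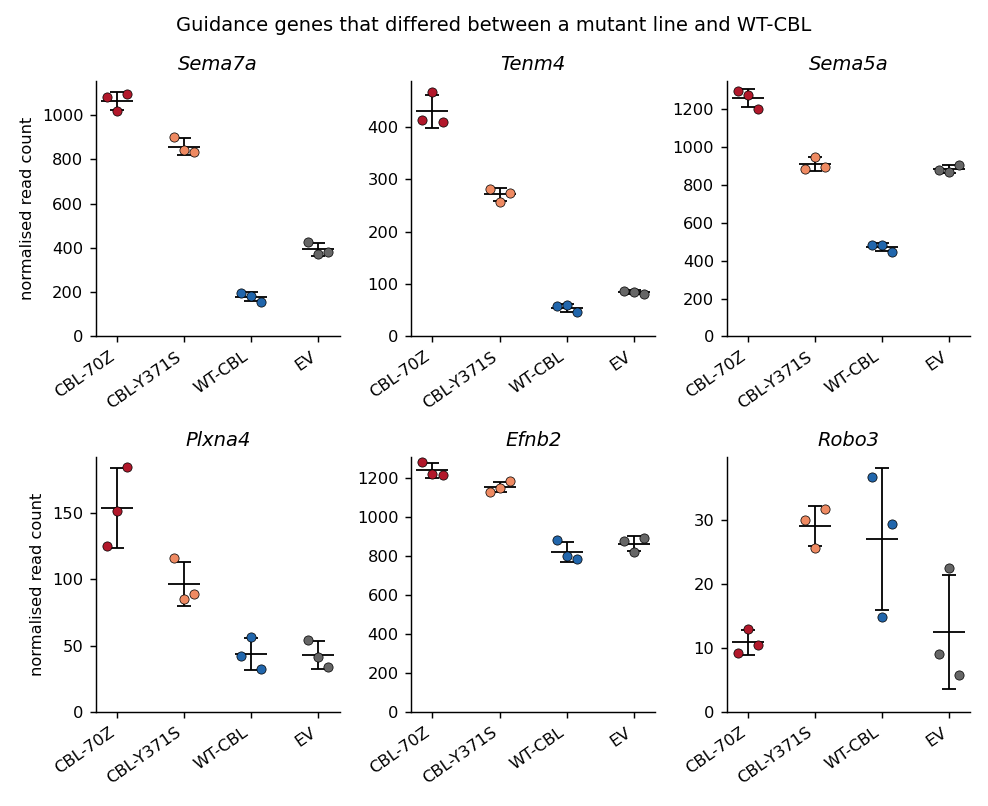
Normalised read counts of 6 guidance genes in each of the 12 libraries (points), with the mean of 3 libraries and its SD (bars), for CBL-70Z, CBL-Y371S, WT-CBL and EV from left to right. Sema7a, Tenm4 and Sema5a are lowest in WT-CBL, while Plxna4 and Efnb2 overlap between WT-CBL and EV, and Robo3 is low in CBL-70Z and EV.

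Tenm4, a teneurin that bridges cells by binding latrophilins, had the largest fold change of any member. Tenm4 had 413, 466 and 409 normalised reads in the CBL-70Z libraries, 281, 257 and 274 in the CBL-Y371S libraries, 58.3, 59.5 and 46.6 in the WT-CBL libraries and 87.4, 85.1 and 80.8 in the EV libraries. No library of a line overlapped that of another. Tenm4 rose against EV by 2.33 ± 0.10 (adjusted p = 8.09e-13) in CBL-70Z and by 1.67 ± 0.10 (adjusted p = 2.48e-11) in CBL-Y371S, and fell in WT-CBL with -0.62 ± 0.10 (adjusted p = 5.15e-05), which was -0.33 and still called with the trend removed. It was 7.74-fold higher in CBL-70Z and 4.9-fold higher in CBL-Y371S than in WT-CBL. The excess in CBL-70Z over CBL-Y371S was 0.66 ± 0.10 (adjusted p = 1.56e-05), or 0.43 with the trend removed. Tenm1, Tenm2 and Tenm3 failed the filter, with at most 2.04 normalised reads in a library. The latrophilin genes Adgrl1 and Adgrl2 were expressed, at 2545 and 3204 normalised reads in EV. Adgrl2 fell with -0.25 in CBL-70Z, -0.68 in CBL-Y371S and -0.35 in WT-CBL against EV, where the last 2 were -0.32 and -0.12 with the trend removed, and Flrt3, another latrophilin ligand that also binds Unc5b, rose by 1.78 and 1.80 in the mutant lines and was 0.27 and not called in WT-CBL.

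The ephrins changed in different directions. Efnb2, which encodes the transmembrane ligand of Ephb4, rose in both mutant lines. Efnb2 had 1282, 1219 and 1214 normalised reads in the CBL-70Z libraries, 1130.0, 1148 and 1183 in the CBL-Y371S libraries, 881, 797 and 785 in the WT-CBL libraries and 878, 822 and 891 in the EV libraries. The mutant libraries did not overlap those of WT-CBL or EV, which overlapped each other. Efnb2 rose against EV by 0.52 ± 0.048 (adjusted p = 7.57e-08) in CBL-70Z and by 0.42 ± 0.048 (adjusted p = 2.33e-07) in CBL-Y371S, and was -0.074 ± 0.048 (adjusted p = 0.229) in WT-CBL. The WT-CBL value was -0.13 and called lower without WT-CBL replicate 1, but 0.013 and not called with the trend removed. Its receptor gene Ephb4, which was called in neither mutant line against EV, averaged 3041 ± 50.9, 3042 ± 82.8, 2892 ± 82.3 and 3162 ± 69.9 normalised reads in CBL-70Z, CBL-Y371S, WT-CBL and EV (SD, n = 3 each). With the trend removed Ephb4 was -0.14 in CBL-Y371S against EV and called lower, where the value before was -0.056. Efna5, which encodes a lipid-anchored ligand of EphA receptors, went the other way. Efna5 had 289, 277 and 266 normalised reads in the CBL-70Z libraries, 217, 196 and 200.5 in the CBL-Y371S libraries, 322, 319 and 272 in the WT-CBL libraries and 308, 381 and 362 in the EV libraries. CBL-Y371S lay below every other line, and WT-CBL overlapped EV. Efna5 fell against EV with -0.33 ± 0.085 (adjusted p = 0.00641) in CBL-70Z, which was -0.27 and not called without EV replicate 2, and with -0.77 ± 0.085 (adjusted p = 1.39e-07) in CBL-Y371S. In WT-CBL it was -0.20 ± 0.085 (adjusted p = 0.0622), a value that was called without EV replicate 1 (-0.29) or WT-CBL replicate 1 (-0.24) and was -0.13 without WT-CBL replicate 3.

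Efnb3 had 51.1, 49.8 and 59.7 normalised reads in the CBL-70Z libraries, 69.4, 85.0 and 69.5 in the CBL-Y371S libraries, 65.8, 60.6 and 67.8 in the WT-CBL libraries and 56.2, 58.4 and 50 in the EV libraries. The CBL-Y371S libraries lay above all 9 others. Efnb3, a B-class ephrin, rose in CBL-Y371S against EV by 0.43 ± 0.14 (adjusted p = 0.0102) and was lower in CBL-70Z than in CBL-Y371S with -0.47 ± 0.14 (adjusted p = 0.00727). Both calls were lost with the trend removed (0.30 and -0.30) and with DESeq2 on the reads. The first was also lost without CBL-Y371S replicate 2 (0.34). Efna1, a ligand of Epha2, rose in WT-CBL by 0.24 and fell in CBL-70Z with -0.18. The WT-CBL call did not hold with the trend removed (0.15), and the CBL-70Z call was lost without 7 of the 12 libraries in turn (-0.14 to -0.18). Efna4 rose in CBL-Y371S by 0.32, which was 0.14 and not called with the trend removed. Efna3 and Efna4 share 14.1% and 10.5% of their exon bases with other genes. Efnb1 was called in no comparison, and Efna2 failed the filter with at most 3.76 normalised reads.

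Among the Eph receptor kinases, Epha4 fell most. Epha4 had 514, 528 and 484 normalised reads in the CBL-70Z libraries, 386, 400.3 and 355 in the CBL-Y371S libraries, 663, 646 and 577 in the WT-CBL libraries and 711, 745 and 729 in the EV libraries. CBL-Y371S lay lowest, CBL-70Z next, and EV above all 9 libraries of the CBL lines. Epha4, which binds ephrins of both classes, fell against EV with -0.52 ± 0.060 (adjusted p = 1.92e-06) in CBL-70Z, -0.94 ± 0.060 (adjusted p = 7.71e-11) in CBL-Y371S and -0.21 ± 0.060 (adjusted p = 0.00738) in WT-CBL. The WT-CBL value was -0.089 and not called with the trend removed, and the excess of CBL-70Z over CBL-Y371S was 0.21 instead of 0.42. Epha2, the receptor of ephrin-A1, rose in all 3 CBL lines, with means of 1604 ± 43.9 normalised reads in CBL-70Z, 1907 ± 50.8 in CBL-Y371S and 1556 ± 27.6 in WT-CBL, against 1379.7 ± 61.5 in EV (SD, n = 3 each), with log2 fold changes of 0.22, 0.47 and 0.17. Ephb3 fell in all 3, to 2273 ± 110.5, 2165.9 ± 30.4 and 2562 ± 83.8 in the same order of lines, against 2877 ± 18.3 in EV, with -0.34, -0.41 and -0.17. Ephb4 fell in WT-CBL with -0.13. Ephb2 was not called against EV, at -0.040 in CBL-Y371S and -0.027 in WT-CBL, but with the trend removed both turned direction and were called higher (0.15 and 0.15). Epha1, Epha7, Epha10 and Ephb6 were called in no comparison. Epha3, Epha5, Epha6, Epha8 and Ephb1 failed the filter, with at most 3.61 normalised reads in a library.

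**Figure D4:**
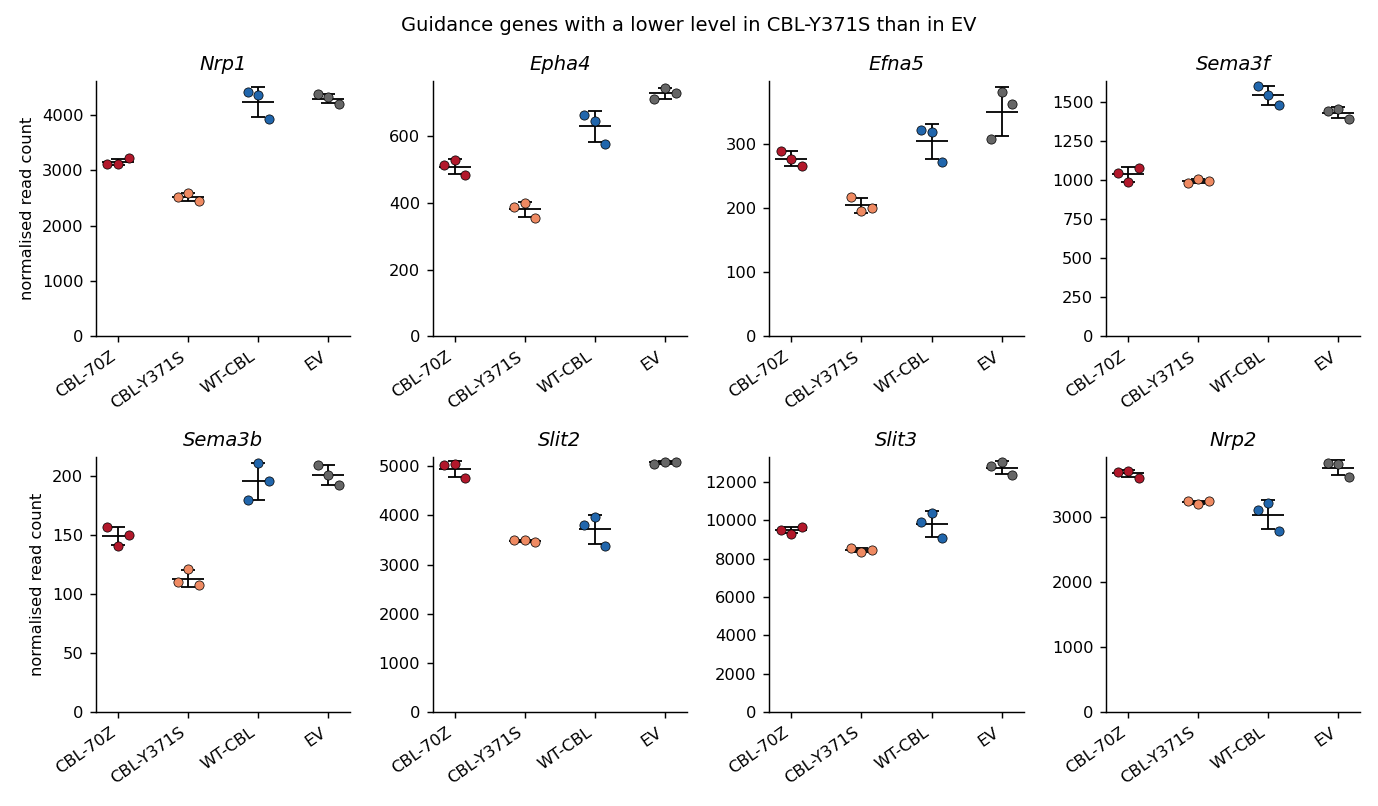
Normalised read counts of 8 guidance genes in each of the 12 libraries (points), with the mean of 3 libraries and its SD (bars), for CBL-70Z, CBL-Y371S, WT-CBL and EV from left to right. CBL-Y371S lies below every other line for Nrp1, Epha4, Efna5, Sema3b and Slit3, and has the lowest mean for Slit2 and Sema3f. WT-CBL has the lowest mean for Nrp2.

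Each slit fell in at least 1 line against EV, Slit3 being the ligand with the highest level per length, while the Robo receptors had few reads. Slit3 had 9473, 9305 and 9631 normalised reads in the CBL-70Z libraries, 8561, 8334 and 8446 in the CBL-Y371S libraries, 9906, 10388 and 9049 in the WT-CBL libraries and 12801, 13028 and 12372 in the EV libraries. The EV libraries lay above all 9 others, and the CBL-Y371S libraries lay below all 9 others. Slit3 fell against EV with -0.43 ± 0.037 (adjusted p = 3.79e-08) in CBL-70Z, -0.59 ± 0.037 (adjusted p = 5.7e-11) in CBL-Y371S and -0.38 ± 0.037 (adjusted p = 1.64e-07) in WT-CBL. Against WT-CBL the CBL-70Z value of -0.044 was not called, but it was -0.099 and called without WT-CBL replicate 3. Slit2 had 5031, 5038 and 4754 normalised reads in the CBL-70Z libraries, 3490.3, 3499 and 3448 in the CBL-Y371S libraries, 3807, 3956 and 3385 in the WT-CBL libraries and 5047, 5086 and 5091 in the EV libraries. CBL-Y371S and WT-CBL lay below CBL-70Z and EV. Slit2 fell with -0.54 ± 0.042 (adjusted p = 8.9e-10) in CBL-Y371S and -0.45 ± 0.042 (adjusted p = 8.35e-08) in WT-CBL, and was -0.039 ± 0.042 (adjusted p = 0.552) in CBL-70Z. Slit2 has the longest exon model of the members, and with the trend removed these falls were -0.063 and -0.11, both still called, and the excess of CBL-70Z over WT-CBL was 0.14 instead of 0.41. Against WT-CBL, CBL-Y371S stood at -0.092, and at -0.16 and called without WT-CBL replicate 3. Slit1 had 18.4, 15.1 and 22.0 normalised reads in the CBL-70Z libraries, 18.3, 17.4 and 19.0 in the CBL-Y371S libraries, 9.40, 14.9 and 14.2 in the WT-CBL libraries and 17.1, 23.4 and 20.2 in the EV libraries. The WT-CBL libraries lay lowest, at a level near the filter. Slit1 in WT-CBL was -0.63 ± 0.25 (adjusted p = 0.049) against EV, a call that was lost with the trend removed (-0.60), without WT-CBL replicate 3 (-0.71) and without 8 of the other libraries in turn (-0.53 to -0.63 for all but WT-CBL replicate 1, which gave -0.44).

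Robo3, an atypical Robo that in mammals does not bind slits and modulates the response of commissural axons, was the single Robo that passed the filter. Robo3 had 9.20, 13.0 and 10.5 normalised reads in the CBL-70Z libraries, 29.9, 25.6 and 31.6 in the CBL-Y371S libraries, 36.7, 14.9 and 29.4 in the WT-CBL libraries and 9.04, 22.5 and 5.77 in the EV libraries. CBL-Y371S lay above CBL-70Z and EV, WT-CBL overlapped EV, and the counts were small. Robo3 rose in CBL-Y371S against EV by 1.35 ± 0.37 (adjusted p = 0.00379). In WT-CBL it rose by 1.17 ± 0.37 (adjusted p = 0.0163), a call lost without EV replicate 1 (1.06), EV replicate 3 (0.78) or WT-CBL replicate 1 (0.91). CBL-70Z stood at 0.011 ± 0.37 (adjusted p = 0.989) against EV, below CBL-Y371S with -1.34 ± 0.37 (adjusted p = 0.00507) and below WT-CBL with -1.16 ± 0.37 (adjusted p = 0.0202), the last of which was lost without WT-CBL replicate 3 (-1.05), WT-CBL replicate 1 (-0.90) or CBL-70Z replicate 1 or 3 (-1.05 and -1.14). Robo2 had 10 reads over the CBL-Y371S libraries and 6 over the WT-CBL libraries. Robo1 and Robo4 had at most 3 and 4 reads over the 3 libraries of any line.

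Ntn1 had 113, 109 and 119 normalised reads in the CBL-70Z libraries, 81.9, 87.3 and 78.6 in the CBL-Y371S libraries, 87.5, 106 and 101 in the WT-CBL libraries and 126, 109 and 85.6 in the EV libraries. CBL-Y371S lay below CBL-70Z, and EV overlapped every other line. Ntn1, the founding netrin, which attracts or repels axons by receptor, was higher in CBL-70Z than in CBL-Y371S by 0.46 ± 0.13 (adjusted p = 0.00542). It fell in CBL-Y371S against EV with -0.35 ± 0.13 (adjusted p = 0.023), a call lost without EV replicate 1 (-0.23), EV replicate 2 (-0.33) or CBL-Y371S replicate 1 or 3 (-0.35 and -0.32). Ntn3 fell in CBL-70Z with -0.27 and in CBL-Y371S with -0.32 against EV, and was -0.19 in WT-CBL and not called. The CBL-70Z call for Ntn3 was lost without EV replicate 2 or 3 or any CBL-70Z library in turn (-0.23 to -0.28). Unc5b, a repulsive netrin receptor, was the single Unc5 receptor that passed, at 820.5 ± 13 normalised reads in CBL-70Z, 915 ± 36.2 in CBL-Y371S, 762 ± 76.5 in WT-CBL and 661 ± 16.7 in EV (SD, n = 3 each). Unc5b rose against EV by 0.31 ± 0.058 (adjusted p = 0.000442) in CBL-70Z, 0.47 ± 0.058 (adjusted p = 7.17e-07) in CBL-Y371S and 0.20 ± 0.058 (adjusted p = 0.00847) in WT-CBL, and the WT-CBL call was lost without WT-CBL replicate 1 (0.15). Neo1, the neogenin gene, averaged 2338 normalised reads in EV and fell with -0.28 in CBL-Y371S and -0.19 in WT-CBL, neither of which held with the trend removed.

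Further genes of the pathway were taken from 3 lists. Of 33 co-receptors and further guidance ligands, 21 were tested, and 7 rose and 6 fell in CBL-70Z, 5 rose and 11 fell in CBL-Y371S and 9 fell in WT-CBL, all against EV. Over all tested genes the shares that rose and fell were 12.2% and 12.1%, 29.8% and 30.3%, and 20.8% and 21.0% for these lines. With the trend removed these counts were 7 and 6, 6 and 8, and 4 and 7 in the same order of lines. The median log2 fold changes of these 21 were -0.084, -0.17 and -0.16. Rgmb, a repulsive guidance molecule that binds neogenin, rose by 0.97 and 0.98 in the mutant lines. It was 0.094 and not called in WT-CBL, where it was 0.20 and called with the trend removed and 0.13 and called without WT-CBL replicate 2. Nrcam, an adhesion molecule that joins neuropilin complexes, rose by 1.72 and 2.08 in the mutant lines on an EV mean of 3.04 normalised reads, and the CBL-70Z call was lost without EV replicate 1 (0.91) or CBL-70Z replicate 1 or 2 (1.65 and 1.44). Without EV replicate 1 the CBL-Y371S value was 1.27 and still called. In WT-CBL Nrcam was 1.21 and not called, but 1.77 and called without EV replicate 3 and 1.43 and called with the trend removed. Flrt1 and Ptk7 fell in both mutant lines, with -0.78 and -0.92 for Flrt1 and -0.30 and -0.24 for Ptk7. The CBL-70Z call of Flrt1 was lost without any EV library or CBL-70Z replicate 1 or 3 in turn (-0.66 to -0.83). It was also lost with DESeq2 on the reads (-0.82). Cdon, a co-receptor of the netrin and hedgehog pathways, fell in all 3 lines, with -0.33 in CBL-70Z, -0.99 in CBL-Y371S and -0.45 in WT-CBL. In WT-CBL, Gpc1, a proteoglycan that binds slits, fell with -0.31, while it rose by 0.28 and 0.35 in the mutant lines.

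Of 54 signal transducers of guidance receptors, 48 were tested, and 5 rose and 11 fell in CBL-70Z, 14 rose and 23 fell in CBL-Y371S and 8 rose and 18 fell in WT-CBL, with medians of 0.001, -0.13 and -0.058, beside the same shares of all genes. With the trend removed the numbers that rose and fell were 9 and 7, 11 and 15, and 10 and 12 in the same order of lines. Ngef, the ephexin that links EphA4 to RhoA, rose in all 3 lines, by 1.25 in CBL-70Z, 1.82 in CBL-Y371S and 0.51 in WT-CBL. Ablim1, an actin-binding protein, fell with -1.12 and -1.44 in the mutant lines and was -0.035 in WT-CBL. Dpysl2, the collapsin response mediator of class 3 semaphorins, rose by 0.27, 0.43 and 0.16 in the same order. Rock1, a kinase downstream of RhoA, fell with -0.77 in CBL-Y371S, which was -0.26 with the trend removed. Rnd1, a GTPase that binds plexins, rose by 0.62 in WT-CBL. Of 9 sheddases and processing enzymes, 7 were tested, and 3 fell in CBL-70Z, 5 in CBL-Y371S and 4 in WT-CBL, with medians of -0.068, -0.14 and -0.10, where 12.1%, 30.3% and 21.0% of all tested genes fell. With the trend removed 3 fell in CBL-70Z, 1 rose and 4 fell in CBL-Y371S, and 3 fell in WT-CBL. Of all genes with a length 11.4%, 24.7% and 15.7% then fell, and 32.1% rose in CBL-Y371S. The 2 that fell furthest were Adam12, which cleaves ephrin-A1, with -0.85, -1.34 and -0.54, and Mmp14, a membrane-bound metalloproteinase, with -0.43, -0.68 and -0.26, in CBL-70Z, CBL-Y371S and WT-CBL.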

How the data were processed

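RNA was extracted with TRIzol from the 4 NIH-3T3 lines, and 12 TruSeq v2 libraries, a kit that does not mark strand, were sequenced in pairs. Per the submitters' processing notes, reads were checked with FastQC 0.10.1, aligned by TopHat2 2.0.13 on Bowtie2 2.2.4.0 against GRCm38, counted with HTSeq 0.9.1 and normalised with DESeq2. The annotation release and the HTSeq strand setting are not given in the sources used here. The deposited values are normalised counts (a signal, reads over size factor), made by the authors in 3 tables that each hold EV and 1 CBL line. The fold change and p-value columns of the authors were not used.

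Reads were recovered by the factor that makes each library whole (100% of values at a tolerance of 1e-6), and each EV library gave identical reads in every table. All 12 libraries were put on 1 scale by median-of-ratios size factors over 17009 genes. Genes averaging 10 or more in some line were tested with limma 3.58.1 in R 4.3.3 (lmFit, contrasts, eBayes with trend) on log2(value + 1), which understates changes of low genes, with all 4 lines in the fit and Benjamini-Hochberg adjustment over 15266 genes. RPKM used exon lengths of GENCODE M21. Ntn3 had no length there. Where genes overlap, reads cannot be assigned by strand.

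The members and lists were chosen with earlier results of these data known. Per-library values are given for members that, in any of the 6 comparisons, were among the 8 largest called changes without overlap between the libraries compared, 18 in all. Of the other lists up to 3 genes in each direction against EV could be named, and Itgb1, Adgrl1 and Neo1 were added, as receptors of members, after their values were seen. Alternatives were edgeR 4.0.16 and DESeq2 1.42.0 on the recovered reads, TMM scaling, other pseudocounts and filters, only the 2 lines compared, a replicate block, a fit without the length and G and C trend (natural splines with 5 degrees of freedom each), a fold of 2 and each library left out. The fit was tested on simulated data.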

Additional observations from a re-analysis of the deposited data

How the results depend on the processing

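Over the 6 comparisons the 48 tested members gave 133 called fold changes. Direction was kept in all 133 under TMM scaling, both pseudocounts, no filter, the 2-line fits, edgeR, DESeq2, the replicate block and each library left out. Calls were lost in 9 without a filter, 5 with only the 2 lines compared, 2 with edgeR, 13 with DESeq2 and 2 to 11 without a single library. Against EV, the calls lost with DESeq2 were Efna1, Ntn3, Plxna1 and Plxnb1 in CBL-70Z and Efnb3, Ntn1 and Sema3c in CBL-Y371S. In WT-CBL against EV they were Sema3f, Sema4c and Slit1. The rest were Sema4c in CBL-70Z against WT-CBL, and Efnb3 and Plxna2 in CBL-70Z against CBL-Y371S. Deviations of libraries with the same replicate number correlated at -0.098 to 0.21 between lines, and those with different numbers at -0.196 to 0.144. With 3 libraries in each line, these values cannot show whether the numbers mark pairs. With a replicate block 130 of 133 calls were kept. At a fold of at least 2 the members called numbered 3, 4 and 2 in CBL-70Z, CBL-Y371S and WT-CBL against EV. They numbered 5 and 3 for the mutant lines against WT-CBL, and 1 in CBL-70Z against CBL-Y371S, beside the shares of all genes given above. With the length and G and C trend removed, 105 of 131 calls were kept, 21 were lost and 5 turned direction. The log2 fold changes that turned were Nrp2 in CBL-Y371S against EV (0.035), Plxna2 in CBL-70Z against CBL-Y371S (-0.12) and Sema3a in CBL-Y371S against EV (0.30), CBL-70Z against WT-CBL (-0.072) and CBL-70Z against CBL-Y371S (-0.19). Nrp1 in WT-CBL against EV became 0.16. Rhod, a signal transducer, became -0.041 in CBL-Y371S against EV. The 4 members have 9.79 to 17.2 kb of exon, and the cause was not tested. Depth limits the members with means near 10 reads, such as Robo3 and Slit1.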

Other observations

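Several members are neighbours in the genome, which the choice by symbol did not use. Sema3b and Sema3f lie 72.3 kb apart on the same strand of chromosome 9, and their log2 fold changes were -0.43 and -0.47 in CBL-70Z against EV. In CBL-Y371S against EV they were -0.82 and -0.52, and in WT-CBL against EV -0.041 and 0.11. Robo3 and Robo4 lie on opposite strands of chromosome 9 and run towards each other, with 0.554 kb between the ends of their gene models. Robo4 had at most 4 reads over the 3 libraries of any line, where Robo3 had means of 29.0 in CBL-Y371S and 12.4 in EV. Efna1, Efna3 and Efna4 stand in a row on chromosome 3, 32.8 and 10.4 kb apart, and their values in CBL-Y371S against WT-CBL were -0.22, -0.20 and 0.20, called lower, not called and called higher. The call for Efna1 was lost without CBL-Y371S replicate 1 or 3 (-0.19 each), and that for Efna4 with the length and G and C trend removed (0.12) or without WT-CBL replicate 1 (0.16) or CBL-Y371S replicate 1 or 2 (0.19 and 0.18). Ephb2, at 2017 ± 42.1 normalised reads in EV (SD, n = 3), lies 93.4 kb from Epha8, which had at most 7 reads over the 3 libraries of any line.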
